A study of Mus musculus with 12 samples.

Results

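The first and last exon bins of mouse genes were described in RAW264.7 cells, an established mouse macrophage line, after knockdown of the splicing factor SF3a1 and stimulation with LPS. An exon bin is a stretch of exon between annotated exon edges, and bins are numbered along the genome within a gene, so that the lowest- and highest-numbered bins hold its outermost exon sequence. Genes were taken whose bins were not joined with those of an overlapping gene, that had 5 or more bins, and that had 1000 or more bin counts summed over the 3 control siRNA libraries without LPS. An outermost bin was kept when its counts over all 11 libraries with bin counts came to 50 or more. Of 37223 genes or joined genes with 354841 bins, 7620 met the first rule, and 9608 of their 15240 outermost bins met the second. The bins were thus chosen by their measured counts, so the level of a kept bin is a description.

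Cells received a control non-targeting siRNA or an siRNA against SF3a1 for 24 hours, followed by no LPS or 20 ng/ml LPS for 4 hours. Each of the 4 combinations had 3 libraries. Bin counts were used for 11 of these 12, and for LPS-treated control cells the exon data of replicate 3 were not used here. All 4 groups were transfected, so every library carries an siRNA. Per the study's methods, siRNA treatments and LPS exposures were done in triplicate. The labels do not say whether replicates of a group were separate cultures. Where they were not, p-values measure only the spread between these libraries. The knockdown was checked first: the gene count of Sf3a1 was 173, 216 and 185 CPM, counts scaled to the library total, with control siRNA without LPS, and 27.1, 27.5 and 32.1 CPM with SF3a1 siRNA (log2 fold change -2.73 ± 0.20, SE). With LPS it was 150, 194 and 157 CPM with control siRNA and 30.3, 26.7 and 45.0 CPM with SF3a1 siRNA (log2 fold change -2.30 ± 0.20). Of 10 macrophage markers, 9 were at 1 CPM or more in all 12 libraries, with a summed level of 9902 to 16517 CPM and Lyz2 the most abundant, at 4979 to 9895 CPM. The markers of fibroblasts, B cells, epithelium and neutrophils summed to at most 1.39 CPM in any library, and of 5 T cell markers 4 averaged under 1 CPM while Lck reached 1.81 to 13.7 CPM.

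A first exon begins at a transcription start site and has a 5′ splice site but no 3′ splice site, whereas a last exon has a 3′ splice site and ends where the transcript is cleaved and polyadenylated. SF3a is part of the U2 snRNP, the particle that binds branch points upstream of 3′ splice sites, which a first exon lacks. Genes often have several start and polyadenylation sites, and an outermost bin therefore often belongs to an alternative first or last exon that few of the gene's transcripts use.

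A window of 30 bases near the end of the bin is shown for 4 of the named 3′ bins with matched coordinates, written 5′ to 3′ on the gene's strand in build mm10. Capitals mark the hexamers AATAAA or ATTAAA, which are the letters of the polyadenylation signal. These 4 were picked after their values were seen, and each window was placed on such a hexamer, so that its presence in them is no finding. The first 2 belong to bins that rose with SF3a1 siRNA, the next to one that fell, and the last to one that fell with LPS.

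Tlr4 bin 10, chr4:66930235-66930264, forward strand: tgaAATAAAccctcccaaaatctgagttgc

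Nt5m bin 9, chr11:59880939-59880968, forward strand: gtggtgattttacAATAAAagctaagaccc

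Nfx1 bin 36, chr4:41025958-41025987, forward strand: aaacttgaaatcATTAAAcaaggcacttaa

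Uxs1 bin 1, chr1:43746970-43746999, reverse strand: aagccagcccctATTAAAtgttttctaaga

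Between the hexamer and the end of the bin lay 41 bases in Tlr4, 11 in Nt5m, 18 in Nfx1 and 16 in Uxs1. Over the 2471 matched 3′ terminal bins, 2030 (82.2%) held AATAAA or ATTAAA on the gene's strand within their last 50 bases, against 33.7% of the last 50 bases of all 141767 annotated transcripts. Among the matched 3′ bins that were called higher with SF3a1 siRNA, 13 of 15 held one of them and 2 did not, and 2 of 2 called lower held one.

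For 5′ bins, the 150 bases before the most upstream RefSeq start (GRCm38.p6, the assembly mm10 is drawn from) are shown for 3 genes whose 5′ bins changed. Capitals mark the letters GAAA, any 2 bases and GAAA, part of the interferon-stimulated response element, in Parp11 and Tm9sf4, and the letters CATG, any 6 bases and CATG, part of the p53 response element, in Cdkn1a. Both strands were searched, and the motifs and genes were chosen after the values were seen.

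Parp11, chr6:127446690-127446839, forward strand: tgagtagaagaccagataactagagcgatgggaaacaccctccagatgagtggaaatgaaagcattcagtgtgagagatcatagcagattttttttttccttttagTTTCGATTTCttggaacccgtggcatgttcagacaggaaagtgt

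Tm9sf4, chr2:153161151-153161300, forward strand: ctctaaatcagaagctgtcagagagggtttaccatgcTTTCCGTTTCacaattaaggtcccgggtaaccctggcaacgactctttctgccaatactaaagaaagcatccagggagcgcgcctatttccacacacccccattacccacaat

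Cdkn1a, chr17:29090829-29090978, forward strand: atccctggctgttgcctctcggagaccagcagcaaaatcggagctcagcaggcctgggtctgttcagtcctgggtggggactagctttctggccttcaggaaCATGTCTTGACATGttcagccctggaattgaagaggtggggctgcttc

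The sequences of Parp11 and Tm9sf4 hold their motif on the reverse strand, at 44 to 35 and 113 to 104 bases before the start, and that of Cdkn1a holds its motif 48 to 35 bases before the start. In windows from 250 bases before to 50 bases after a start, the GAAA motif was found on either strand in 3.44% of 32851 RefSeq windows and the CATG motif in 0.712%. No window of Tor1aip1, Adar, Tap1 or H3f3b held the GAAA motif, which says only that these letters are not in those windows. Bin 1 of Tm9sf4 (chr2:153161303-153161540) lies 2 bases from the RefSeq start, while bins of Parp11 and Cdkn1a could not be matched to coordinates.

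Strand was known for 7601 of the 7620 genes. At the 5′ end, 3962 of 7601 outermost bins (52.1%) were kept, 892 had no count at all, 1428 had 1 to 9 counts and 1319 had 10 to 49. At the 3′ end, 5616 (73.9%) were kept, 269 had no count, 866 had 1 to 9 and 850 had 10 to 49, and 30 kept bins had no strand. Both ends were kept in 3503 genes. At the edge of the count rule, 18 bins had a total of 50, among them Aar2 bin 15 and Arl6ip4 bin 1, and 26 had 49, among them 2610203C22Rik bin 14 and Aak1 bin 26. Zkscan14 and Mfsd3 entered with 1000 control counts, and Ddx43 with 998 and Zscan20 with 994 did not.

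The ends differed in usage, the percent of a gene's bin counts that fall in the bin. Over control siRNA libraries without LPS, the median 5′ bin took 2.09% (quartiles 0.719 and 5.03%) and the median 3′ bin 19.1% (quartiles 6.91 and 36.3%). Under 1% of the gene's counts fell in 31.8% of the 5′ bins and in 10.0% of the 3′ bins, whereas 5 of the 5′ bins and 651 (11.6%) of the 3′ bins held over 50%. The 3′ bins with the highest usage were those of Lars2, the mitochondrial leucyl-tRNA synthetase (97.5%), Socs3, an inhibitor of cytokine signalling (94.2%), and Gpr179 (93.9%), and the 5′ bins with the highest were in Arhgap5 (69.1%), Ptma (63.1%) and Mfhas1 (56.5%). Matched bins were 163.5 nt long at the 5′ end and 993 nt at the 3′ end (medians, n = 1448 and 2471). Per length, the median 5′ bin had 0.389 and the median 3′ bin 0.752 times the counts of its whole gene. These figures were not adjusted for reads that count in more than 1 bin. Of the matched bins, 83.2% at the 5′ end and 77.2% at the 3′ end belonged to a single annotated transcript, and 48.3 and 39.4% were an exon separated by an intron from the next bin.

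Replicate 1 of each group was sequenced in 2 runs, and these libraries stood apart at the 3′ end. They had 39326161 to 59095475 bin counts, against 17269833 to 29642758 in the other 7 libraries. The median 3′ usage was 16.7 to 17.3% in the 4 replicate 1 libraries and 18.7 to 20.0% in the other 7, with no overlap, while the median 5′ usage, 2.11 to 2.35% against 1.79 to 2.25%, overlapped. For a separate splicing analysis, the study cut reads of replicate 1 to a greater length than those of replicates 2 and 3. Depth, run, read length and replicate cannot be told apart here. The total counts of calls are therefore also given from replicates 2 and 3 alone and with a block on the replicate number. From replicates 2 and 3 alone, control siRNA with LPS has 1 library. In comparisons that use this group, a call lost there also reflects the loss of replication.

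The group means of median usage lay close together at the 3′ end. The mean of the library medians at the 3′ end was 19% (SD 1.5, n = 3) with control siRNA and no LPS, 17.7 ± 1.38% with control siRNA and LPS (SD, n = 2), 18.8 ± 1.36% in unstimulated SF3a1 siRNA cells (SD, n = 3) and 18.9 ± 1.49% with SF3a1 siRNA and LPS (SD, n = 3). At the 5′ end these means were 2.02 ± 0.205, 2.22 ± 0.0322, 2.13 ± 0.191 and 2.16 ± 0.161%. Within replicate 1, LPS moved the 3′ median from 17.3 to 16.7%, and within replicate 2 from 19.8 to 18.7%, in both cases by less than the distance between the replicates. At the 5′ end, LPS moved the median from 2.11 to 2.20% within replicate 1 and from 2.17 to 2.25% within replicate 2, in both cases by more than the distance between these 2 replicates, while replicate 3 without LPS was at 1.79%.

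**Figure D1:**
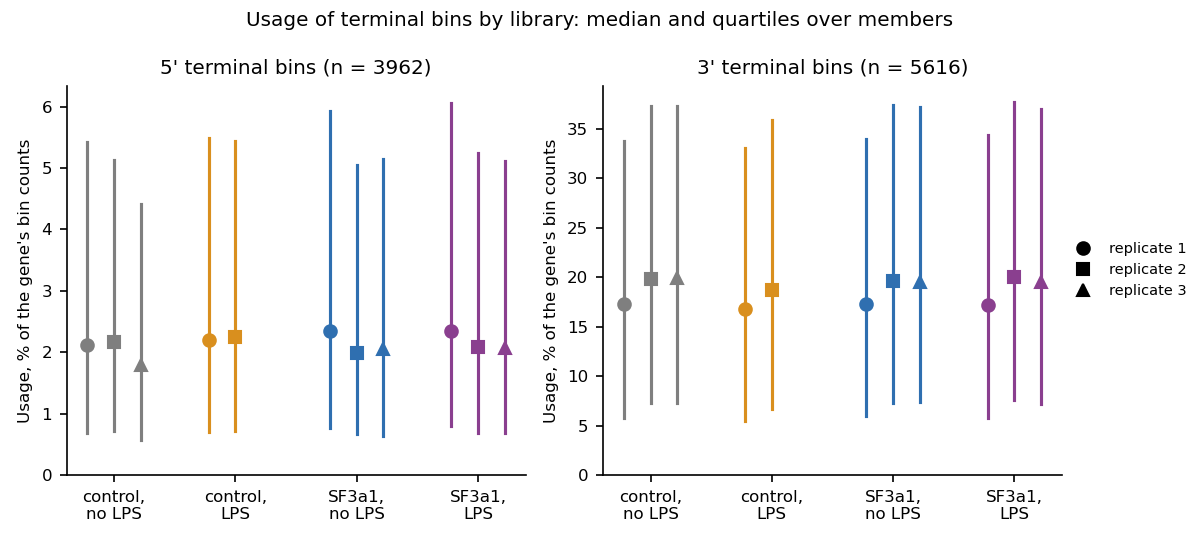
Median (symbol) and quartiles (line) of usage, in percent of the gene's bin counts, over 3962 terminal bins at the 5′ end (left) and 5616 at the 3′ end (right), for each of 11 libraries by group. At the 3′ end, replicate 2 of control siRNA with LPS has 5614 bins. Circles, replicate 1, lie at 16.7 to 17.3% at the 3′ end, below the squares and triangles of replicates 2 and 3 at 18.7 to 20.0%.

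Single bins were tested with edgeR's diffSpliceDGE over all 153624 bins of 10609 genes, where the log2 fold change is that of the bin against its gene's summed counts, and a bin is called where its p, adjusted by Benjamini-Hochberg over all bins, is at most 0.1. Of the 9608 kept outermost bins, 9203 passed the filter on low counts, 3658 at the 5′ end and 5515 at the 3′ end. LPS with control siRNA gave 8 calls among them, 5 higher and 3 lower, which is 0.0869% of those tested, beside 0.0801% of all bins (0.0514% higher and 0.0286% lower). Joined genes, which hold no outermost bin by the rule, gave most of the calls among all bins: among the 142934 bins of genes not joined 41 were called (0.0287%), and between the outermost bins of the same genes it was 0.0237%. In a table of genes not joined alone, 22 of 143073 bins were called, 5 of them outermost. SF3a1 siRNA gave 35 calls without LPS (26 higher, 9 lower) and 35 with LPS (28 higher, 7 lower), or 0.380% in each. The share among all bins was 0.626% without LPS (0.497% higher, 0.128% lower) and 0.492% with LPS (0.381% higher, 0.111% lower), among bins of genes not joined it was 0.559 and 0.42%, and among bins between the ends it was 0.618 and 0.455%. By end, 28 of 5515 tested 3′ bins (0.508%) were called with SF3a1 siRNA without LPS and 29 (0.526%) with LPS, against 7 (0.191%) and 6 (0.164%) of 3658 tested 5′ bins. With LPS in control cells, 2 of the 3′ bins (0.0363%) and 6 of the 5′ bins (0.164%) were called. The differences between these shares were not tested. At an unadjusted p under 0.05, 205, 248 and 277 outermost bins passed in the 3 comparisons (2.23, 2.69 and 3.01%). Among all bins it was 1.97, 3.39 and 3.99%, again without a test of the difference.

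**Figure D2:**
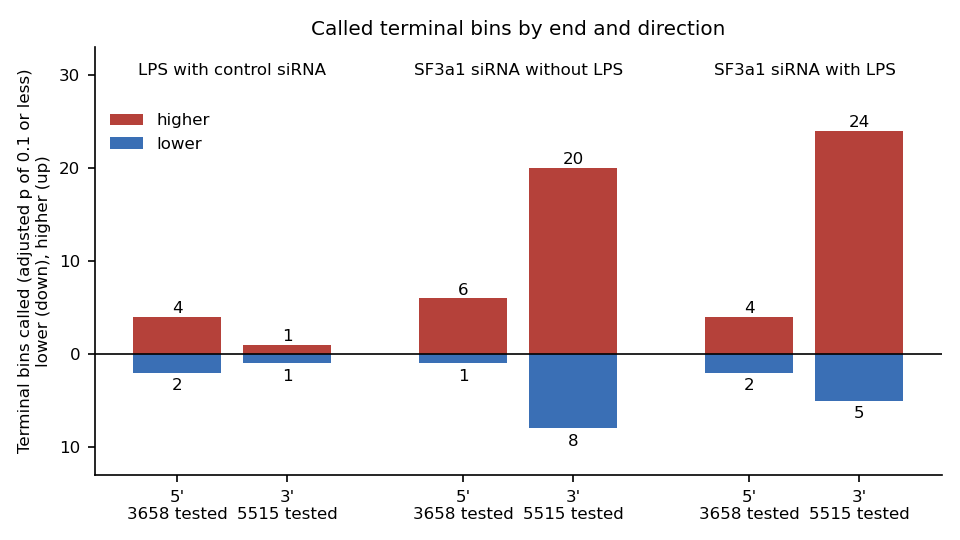
Number of terminal bins called higher (red, up) or lower (blue, down) at an adjusted p of 0.1 or less at the 5′ and 3′ ends in 3 comparisons, with the number tested under each bar. Most calls are 3′ bins with SF3a1 siRNA, 20 higher and 8 lower without LPS and 24 higher and 5 lower with LPS.

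The block on replicate number raised the counts to 21 for LPS and, for SF3a1 siRNA, to 87 without and 85 with LPS. These held 8 of 8, 35 of 35 and 34 of 35 of the calls above. Over all bins the calls rose too, from 123, 961 and 756 to 285, 2115 and 1793 with the block. For SF3a1 siRNA without LPS, the calls over all bins also rose, from 961 to 1468, on replicates 2 and 3 alone. Replicates 2 and 3 alone gave 8, 73 and 40 calls, with 4, 32 and 23 shared. At the 3′ end, the calls with SF3a1 siRNA without and with LPS were 61 and 67 with the block and 57 and 27 from replicates 2 and 3 alone, and at the 5′ end 26 and 18 and then 16 and 13. Leaving out replicate 1 of control siRNA with LPS, the deeper of the 2 libraries of that group, reduced the calls to 2 for LPS and 7 for SF3a1 siRNA with LPS. The LPS comparison shares its control libraries with SF3a1 siRNA without LPS, and its LPS libraries with SF3a1 siRNA with LPS. Since a bin enters with 50 counts over all libraries, some entered through the group where they were high: without the libraries of the higher condition, 2 of the 5 higher with LPS, 10 of the 26 higher with SF3a1 siRNA without LPS and 11 of the 28 with LPS were under 50 counts. Of the bins described below these are Tlr4 bin 10, N4bp2l2, Ints6, Nt5m, Alg5, Tpst1, Atg9b and Prkar1a with SF3a1 siRNA and Parp11 and H3f3b with LPS, and Ddx11, called lower, was likewise under 50 counts without the control libraries. Such a bin was kept because it was high in 1 condition, so its values are a description, and its p and the alternatives in which it was called are not offered as support. In bulk RNA, a change of transcripts within cells and a change in which cells contribute RNA cannot be told apart.

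Some calls of the bins described next were not made by another tool. Limma did not call 1110004F10Rik (adjusted p = 0.502), Alg5 (0.296), Ddx11 (0.356) or Nt5m (0.130) for SF3a1 siRNA with LPS, or Psph (0.375), Dglucy (0.423) or bin 1 of Aebp2 (0.398) without LPS. The DEXSeq model did not call 1110004F10Rik with LPS (adjusted p = 0.264) or Psph (0.572) and Dglucy (0.826) without LPS. From replicates 2 and 3 alone, Alg5 (adjusted p = 0.158), Ddx11 (0.360) and N4bp2l2 (0.417) lost the call with LPS, and Dglucy lost that without LPS (1.2, adjusted p = 1).

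Bin 10 of Tlr4, the receptor for LPS, was a 3′ bin called higher with SF3a1 siRNA in both comparisons. It lies at chr4:66929018-66930284 (1267 nt), is a separate exon with coding sequence in 1 of 4 annotated transcripts, and holds the first sequence shown above near its 3′ end. It begins 86217 bases beyond bin 8, and counts per bin do not show which transcripts its reads came from. Its usage was 0.185, 0.287 and 0.396% with control siRNA without LPS and 10.2, 8.86 and 11.3% with SF3a1 siRNA. With LPS it was 0.392 and 0.328% with control siRNA and 11.9, 13.9 and 15.9% with SF3a1 siRNA. Every SF3a1 siRNA library was above every control library, and no LPS effect was called with control siRNA (log2 fold change 0.63 ± 0.86). The log2 fold change with SF3a1 siRNA was 5.17 ± 0.57 without LPS (adjusted p = 4.5e-09) and 4.96 ± 0.69 with LPS (adjusted p = 6.86e-06). The bin had 21 of its 601 counts in the control libraries. The bin before it, bin 9, was called higher without LPS (5.32 ± 1.10, adjusted p = 0.00383) and took 1.14% of the counts there. With LPS, bin 9 was not called (2.44, adjusted p = 0.728). Bin 8, which held 69.5 to 75.4% with control siRNA without LPS, held 60.1 to 61.8% with SF3a1 siRNA, and its log2 fold change of -0.26 ± 0.33 was not called. The gene count of Tlr4 itself was 50.7 ± 7.23 CPM with control siRNA and 44.9 ± 10.4 CPM with SF3a1 siRNA without LPS (SD, n = 3).

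Of the other genes of TLR signalling that the study followed up, the 3′ bins of Myd88, the adaptor of most TLRs, and Rab7b, a small GTPase of late endosomes, were kept. Rab7b bin 15 took 17.9 ± 1.19% with control siRNA and 16.9 ± 0.468% with SF3a1 siRNA without LPS (SD, n = 3), and its log2 fold change, -0.09 ± 0.30, was not called. Myd88 bin 1, 12 nt long, took 0.174 ± 0.246 and 0.187 ± 0.113%. Their 5′ bins, and both outermost bins of Ikbkb, had 0 to 43 counts in all libraries together and were not kept. Cd14 has 2 bins and no unit was matched to Irak1. The 3′ bin of Sf3a1, the knockdown target, took 13.7 ± 1.78% and 16.9 ± 3.64% without LPS and was not called (0.30 ± 0.34). Its usage with LPS was 10.6 and 13.1% in control cells and 14.9 to 22.0% after the knockdown (19.6 ± 4.10%, SD, n = 3), groups that were apart but not called (0.73 ± 0.38).

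Among the further 3′ bins that rose with SF3a1 siRNA, bin 1 of N4bp2l2 had 0.0365, 0 and 0% of its gene's counts with control siRNA and 1.39, 2.36 and 3.37% with SF3a1 siRNA without LPS (adjusted p = 8.54e-10). With LPS the values were 0.0356 and 0.486% against 3.87, 2.16 and 2.93% (4.10 ± 0.71, adjusted p = 0.000135). The groups did not overlap in either comparison, and the control values rest on 0 to 4 counts per library. Without LPS the pooled ratio was 125 (95% exact interval 21.9 to 4993, counting error only), from 1 control count. The call with LPS was lost without replicate 1 of control siRNA with LPS (2.58) and from replicates 2 and 3 alone (2.33).

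Bin 1 of Ints6, a subunit of the Integrator complex that cleaves nascent transcripts, took 0.657, 0.541 and 0.103% with control siRNA and 3.34, 6.34 and 7.83% with SF3a1 siRNA without LPS. With LPS it took 1.47 and 0.651% against 9.24, 5.15 and 10.3%. The SF3a1 libraries lay above the controls each time (log2 fold change 3.6 ± 0.53, adjusted p = 1.01e-06, and 2.72 ± 0.56, adjusted p = 0.00274). The second call was lost without either of the control siRNA libraries with LPS (3.62 without replicate 1 and 2.46 without replicate 2), while the gene count fell by 0.43 on the log2 scale without LPS.

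Bin 9 of Nt5m, a mitochondrial nucleotidase, is a separate exon of 1633 nt at chr11:59879336-59880968 in 1 of 4 transcripts, with the second sequence above at its end. It took 0.639, 0.714 and 0.163% with control siRNA and 5.28, 5.29 and 6.21% with SF3a1 siRNA without LPS (3.34 ± 0.56, adjusted p = 9.53e-05). With LPS it took 0.457 and 0% against 3.38, 2.99 and 7.10% (3.58 ± 0.70, adjusted p = 0.00381). The groups were apart in both, and the second call was lost without either control siRNA library with LPS (3.21 without replicate 2; without replicate 1 the remaining one had no count). Bin 1 of Neat1, the long noncoding RNA around which paraspeckles form, took 1.27, 0.629 and 0.493% and rose to 10.1, 3.04 and 3.34% without LPS (2.84 ± 0.50, adjusted p = 0.000133). Replicate 1 was the highest in both groups, and the gene count of Neat1 fell by 0.58 on the log2 scale. With LPS its values were 1.6 and 1.92% against 7.24, 3.28 and 5.66%, which was not called (adjusted p = 0.455).

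Of the 15 bins called for SF3a1 siRNA with LPS but not without, the rule for named genes gave 2 3′ bins that rose. Bin 17 of Alg5, an enzyme that makes the glucose donor of protein glycosylation, took 0.0637 and 0% in the controls and 1.15, 1.28 and 1.17% with SF3a1 siRNA, a pooled ratio of 27.5 (95% exact interval 4.75 to 1104, counting error only) from 1 control count (adjusted p = 0.0208). Without LPS it took 0.0919% (mean, n = 3) and 0.465%, in separate ranges, with an adjusted p of 0.683. Its call was lost without either control siRNA library with LPS. Bin 12 of 1110004F10Rik took 0.0635 and 0.239% against 0.226, 1.71 and 1.77% with LPS (3.28 ± 0.72, adjusted p = 0.00929), but there the groups overlapped and replicate 1 was the lowest of every group. That call was lost without replicate 1 of control siRNA (2.24) or replicate 2 or 3 of SF3a1 siRNA with LPS (2.89 and 2.93). Without LPS the 1110004F10Rik bin took 0.977 ± 0.969% with control siRNA and 0.817 ± 0.581% with SF3a1 siRNA (SD, n = 3). There the groups overlapped, the control libraries reached 2.01%, and the change was the other way (-0.31 ± 0.50) and not called.

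Among 3′ bins outside the rule for named genes, chosen after their values were seen, bin 22 of Ddx39, an RNA helicase of mRNA export, took 0.593, 0.503 and 0.567% with control siRNA and 3.35, 3.47 and 4.01% with SF3a1 siRNA without LPS. Its log2 fold change was 2.71 ± 0.38 (adjusted p = 1.37e-07), and 2.58 ± 0.44 with LPS (adjusted p = 6.9e-05), with no overlap and in every alternative run. The gene count of Ddx39 fell at the same time, from 276 ± 50.7 to 99.5 ± 4.25 CPM without LPS and from 286 ± 52.2 to 112 ± 14 CPM with LPS (SD, n = 3), by 1.47 and 1.36 on the log2 scale. Per library total without that adjustment by normalization, the bin itself went from 1.77 ± 0.282 to 3.95 ± 0.313 CPM of bin counts without LPS (SD, n = 3), a smaller step than that of its usage. Bin 1 of Surf6, a nucleolar protein of ribosome assembly, took 0.632, 0.538 and 0.646% against 1.94, 4.33 and 3.19% (2.32 ± 0.39, adjusted p = 3.4e-05), and its call with LPS (2.52 ± 0.49) was lost without replicate 1 of control siRNA (1.6). Both outermost bins of Aebp2, a partner of the Polycomb complex PRC2, were called higher without LPS, the only gene with both: bin 1 at the 5′ end rose from 0.175 ± 0.0238 to 0.802 ± 0.101% and bin 29 at the 3′ end from 1.48 ± 0.661 to 4.60 ± 0.445% (SD, n = 3). No other bin of Aebp2 was called there, and its gene count rose by 0.93 on the log2 scale. The call of bin 1 was lost without any 1 of the 3 control libraries (2.05 to 2.21), and that of bin 29 without replicate 2 or 3 of them (1.49 and 1.47). With LPS neither bin of Aebp2 was called, at 0.76 ± 0.55 for bin 1 and 1.06 ± 0.42 (adjusted p = 0.679) for bin 29.

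Coordinates were matched for 15 of the 30 3′ bins called higher in either SF3a1 comparison. Of these 15, 14 belonged to a single annotated transcript, 9 were a separate exon, 6 held coding sequence, and their median length was 1523 nt. Over all matched 3′ bins the share in a single transcript was 77.2%, that of separate exons 39.4%, that with coding sequence 43.9% and the median length 993 nt. These are descriptions of few bins, without a test.

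**Figure D3:**
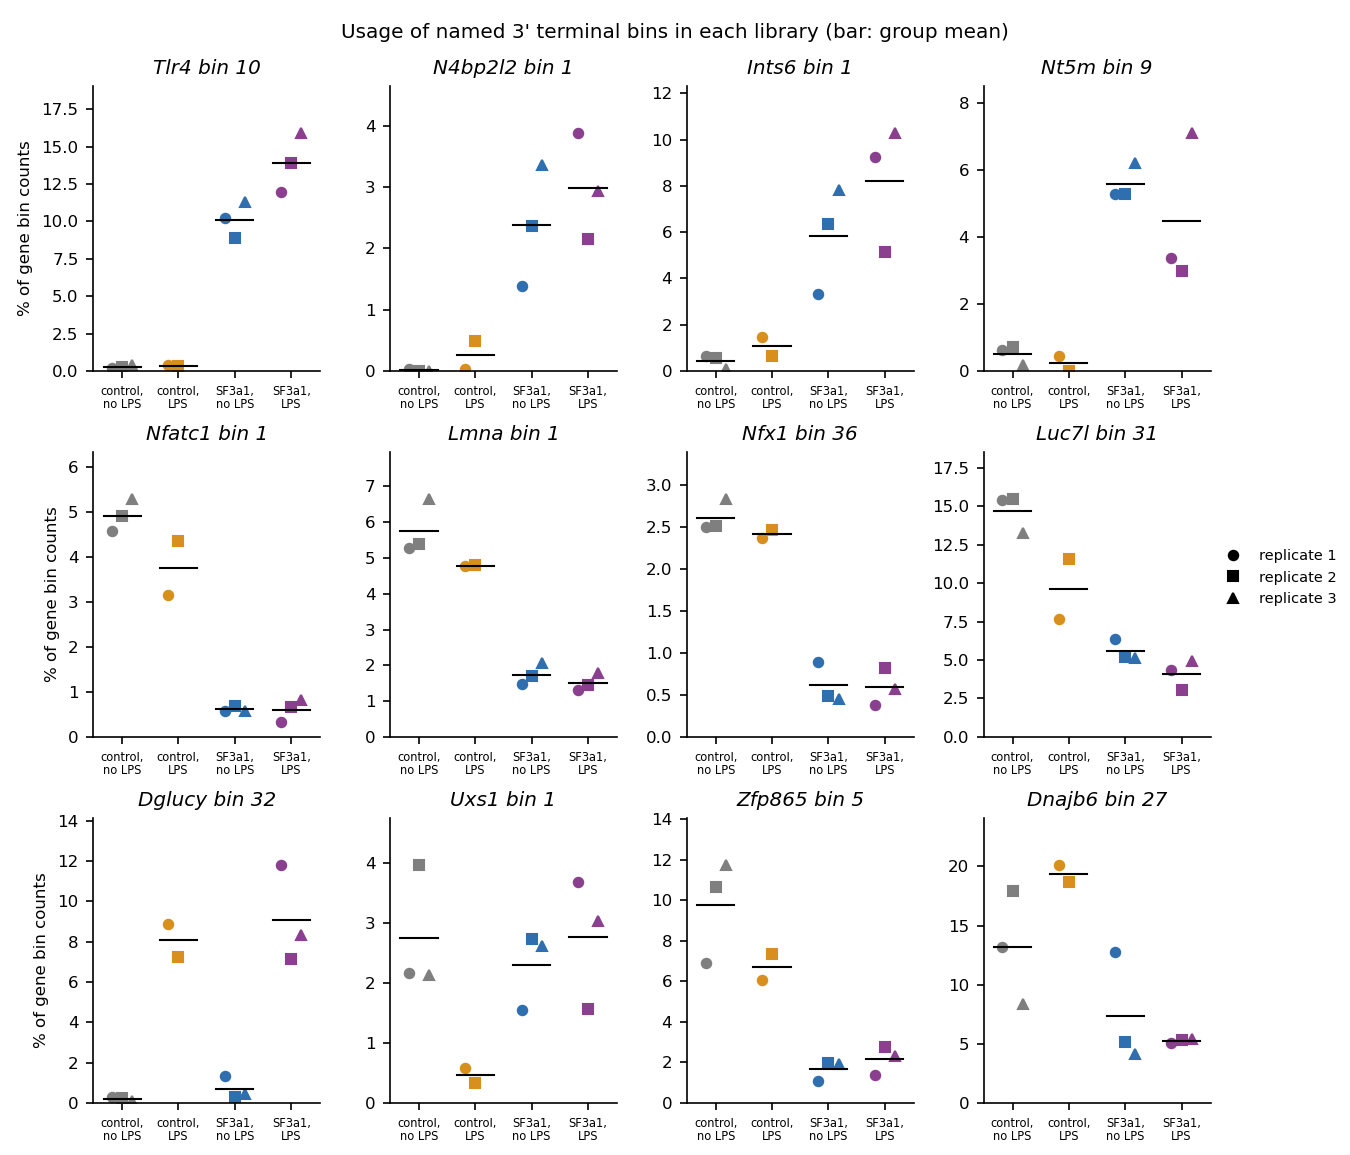
Usage, in percent of the gene's bin counts, of 12 named 3′ bins in each of 11 libraries (circle, square and triangle are replicates 1, 2 and 3; the bar is the group mean). Tlr4 bin 10 lies at 0.185 to 0.396% in the control libraries and at 8.86 to 15.9% with SF3a1 siRNA, and Nfatc1, Lmna, Nfx1 and Luc7l go the other way.

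Fewer 3′ bins fell. Bin 1 of Nfatc1, a calcium-regulated transcription factor of osteoclasts and T cells, took 4.57, 4.90 and 5.27% with control siRNA and 0.572, 0.689 and 0.582% with SF3a1 siRNA without LPS. With LPS it took 3.15 and 4.36% against 0.334, 0.675 and 0.816%. No SF3a1 library reached a control library (log2 fold change -3.01 ± 0.31, adjusted p = 7.38e-12, and -2.64 ± 0.32, adjusted p = 1.66e-08), in every alternative run. The bins next to it, 2 and 3, were called lower too, while bin 4, which took 19.7 to 34.5% with control siRNA and no LPS, was not called. The gene count rose at the same time, from 768 ± 105 to 1994 ± 183 CPM without LPS, so bin 1 fell within a gene whose total rose.

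The same held for bin 1 of Lmna, which encodes the nuclear lamins A and C: 5.27, 5.39 and 6.63% with control siRNA against 1.47, 1.69 and 2.06% without LPS, and 4.77 and 4.79% against 1.32, 1.46 and 1.78% with LPS. The groups were apart (-1.74 ± 0.30, adjusted p = 5.89e-05, and -1.69 ± 0.33, adjusted p = 0.000787), and bins 2, 3 and 4 were called lower with it in both comparisons. The gene count of Lmna rose from 1919 ± 208 to 3477 ± 536 CPM without LPS and from 1379 ± 295 to 3534 ± 903 CPM with LPS.

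Bin 36 of Nfx1, a transcription factor with zinc fingers, is 815 nt long (chr4:41025179-41025993), in 1 of 7 transcripts and part of a longer exon, with the third sequence above near its end. It took 2.50, 2.52 and 2.83% with control siRNA and 0.898, 0.486 and 0.455% with SF3a1 siRNA without LPS. With LPS it took 2.37 and 2.47% against 0.376, 0.824 and 0.572%. The controls were higher throughout (-2.02 ± 0.39, adjusted p = 0.000554, and -2.12 ± 0.42, adjusted p = 0.00175). Bin 31 of Luc7l, a relative of a yeast U1 snRNP protein, took 15.4, 15.4 and 13.3% with control siRNA and 6.37, 5.21 and 5.14% with SF3a1 siRNA without LPS (-1.41 ± 0.29, adjusted p = 0.00377). With LPS it took 7.69 and 11.6% against 4.32, 3.03 and 4.94% (-1.25 ± 0.32, adjusted p = 0.0649), and that call was lost without replicate 1 (-1.55) or 2 (-0.95) of control siRNA or replicate 2 (-1.03) or 3 (-1.40) of SF3a1 siRNA. The 2 groups of Luc7l did not overlap in either comparison.

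The remaining falls were called in 1 comparison. Bin 5 of Zfp865, a zinc finger protein, took 6.93, 10.6 and 11.7% with control siRNA and 1.08, 2.00 and 1.91% with SF3a1 siRNA without LPS (-2.55 ± 0.41, adjusted p = 0.000179), and 6.06 and 7.37% against 1.38, 2.77 and 2.32% with LPS, where the groups were also apart but the adjusted p was 0.156. Bin 18 of Tdrkh, a Tudor domain protein of the piRNA pathway, took 4.56, 4.45 and 4.97% against 1.58, 1.43 and 1.92% without LPS (-1.5 ± 0.33, adjusted p = 0.0463), and that call was lost on leaving out any library of the 2 groups but replicate 1 of control siRNA (-1.43 to -1.61). Bin 27 of Dnajb6, a co-chaperone of Hsp70, took 20.1 and 18.7% with control siRNA and LPS and 5.07, 5.29 and 5.43% with SF3a1 siRNA and LPS (-1.88 ± 0.37, adjusted p = 0.00379). Without LPS its libraries overlapped, at 13.1, 18 and 8.39% against 12.8, 5.12 and 4.14%, and the call with LPS was lost without replicate 1 of control siRNA with LPS (-1.82).

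At the 5′ end, bin 1 of Cdkn1a, the p53 target gene of the cell cycle inhibitor p21, was called with SF3a1 siRNA and LPS. It took 0.265 and 0.260% with control siRNA and 1.63, 1.25 and 1.11% with SF3a1 siRNA (2.37 ± 0.42, adjusted p = 0.000603), and the call was lost without replicate 1 of control siRNA with LPS (2.35). Without LPS it took 1.05, 0.625 and 0.594% against 1.95, 1.79 and 1.6%, also apart, with an adjusted p of 0.111. The gene count rose with it, from 227 ± 19.3 to 1329 ± 93.3 CPM without LPS and from 705 ± 90.3 to 1913 ± 122 CPM with LPS. Its most upstream RefSeq start is the one whose promoter is shown above.

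Bin 1 of Tpst1, a tyrosylprotein sulfotransferase, is a separate exon of 109 nt at chr5:130073326-130073434. It took 0.168, 0.0668 and 0% with control siRNA and 2.5, 1.15 and 1.59% with SF3a1 siRNA without LPS (4.24 ± 0.84, adjusted p = 0.00165), a call that limma did not make (4.24, adjusted p = 0.139). With LPS it took 0.115 and 0% against 0.891, 0.588 and 0.587% (3.36 ± 0.90, adjusted p = 0.0799), a call lost on leaving out any of the 5 libraries and with limma (adjusted p = 0.598). The groups were apart in both, and the gene count of Tpst1 fell by 0.51 without and by 1.43 with LPS on the log2 scale. Bin 19 of Atg9b, an autophagy membrane protein, had no count in any of the 5 control libraries. It took 2.39, 1.29 and 1.83% with SF3a1 siRNA without LPS, at least 29.5-fold higher than the 3 counts that 0 counts over the control group allow, and 0.928, 0.219 and 1.73% with LPS, which was not called (adjusted p = 0.493). It was kept through the SF3a1 siRNA libraries alone, which held all 56 of its counts. Such limits cover counting error only.

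Bin 1 of Prkar1a, a regulatory subunit of protein kinase A, chosen after its values were seen, was called in both comparisons: 0, 0.0293 and 0.0183% against 0.109, 0.240 and 0.277% without LPS (adjusted p = 0.00114), and 0 and 0% against 0.191, 0.246 and 0.203% with LPS (adjusted p = 0.000124). The groups were apart, with 12 to 26 counts per SF3a1 siRNA library. With LPS the usage was at least 18.2-fold above the limit that 0 counts in the control group allow, and that call was lost without replicate 1 of control siRNA. Limma called it in neither comparison (adjusted p = 0.134 without and 0.160 with LPS). Bin 18 of Psph, the enzyme of the last step of serine synthesis, was called without LPS at 0.513, 0.0382 and 0.0925% against 2.25, 0.460 and 0.457% (2.22 ± 0.58, adjusted p = 0.042). There the groups overlapped, replicate 1 was the highest of both, and the call was lost without replicate 1 of SF3a1 siRNA (0.91) or replicate 2 or 3 of control siRNA (1.85 each).

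The 5′ bins that fell by the rule were both called with LPS. Bin 13 of Net1, an exchange factor for RhoA, took 2.99 and 4.88% with control siRNA and 0.805, 0.531 and 0.882% with SF3a1 siRNA (-2.35 ± 0.51, adjusted p = 0.0482), and 3.51, 1.79 and 1.65% against 0.864, 1.07 and 0.775% without LPS, which was apart but not called (adjusted p = 0.754). Bin 1 of Ddx11, a DNA helicase of chromatid cohesion, took 1.54 and 2.03% against 0, 0 and 0.284% with LPS (adjusted p = 0.0494), a pooled level 21-fold higher in the controls (95% exact interval 3.53 to 854, counting error only) over 1 SF3a1 siRNA count. Without LPS the Ddx11 values overlapped, at 1.02, 1.94 and 1.52% against 1.47, 0.660 and 1.59%. The call of Net1 was lost on leaving out any of the 5 libraries (-2.67 to -1.97), and that of Ddx11 on leaving out any but replicate 3 of SF3a1 siRNA.

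**Figure D4:**
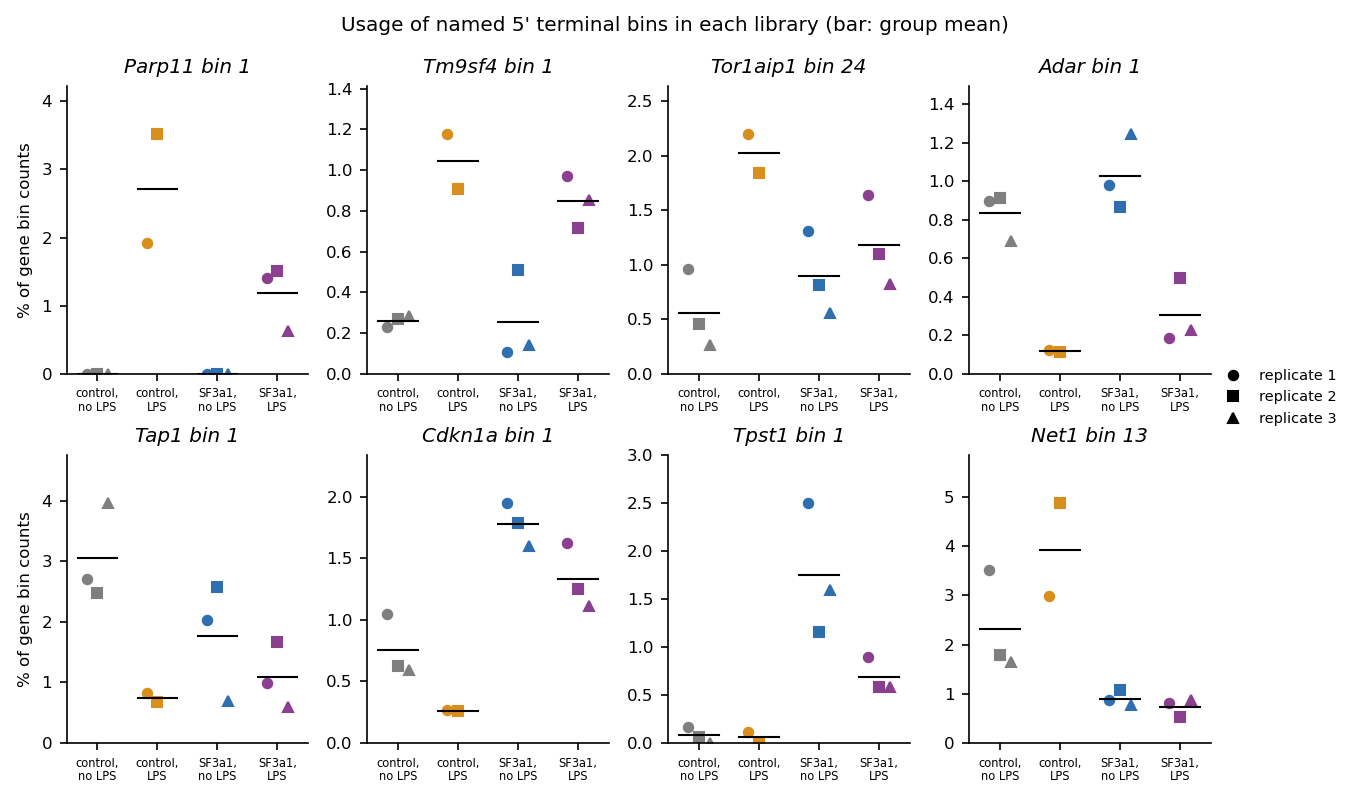
Usage, in percent of the gene's bin counts, of 8 named 5′ bins in each of 11 libraries (circle, square and triangle are replicates 1, 2 and 3; the bar is the group mean). Parp11 bin 1 is at 0 in the 6 libraries without LPS, and Tpst1 bin 1 is at 0 to 0.168% in the control libraries and 0.587 to 2.5% with SF3a1 siRNA.

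The SF3a1 comparisons without and with LPS share no library. Of their 35 calls each, 20 were the same bin (57.1% of each list), and all 20 moved the same way, 16 higher and 4 lower: the 4 were the 3′ bins of Nfatc1, Lmna, Nfx1 and Luc7l. Among the 16, the bins of Tlr4, N4bp2l2, Ints6, Nt5m, Tpst1, Prkar1a and Rad1 were under 50 counts without the SF3a1 siRNA libraries. They were kept because they were high there, so their shared direction is a description and no support. For these shared calls and those below, the matching overlap among the calls of all bins was not counted. The overlap is therefore not read as a trait of outermost bins. Of the 15 called without LPS only, 14 had the same sign with LPS, and of the 15 called with LPS only, 13 had the same sign without. With the block, 42 bins were shared by the 87 and 85 calls (48.3 and 49.4%), and from replicates 2 and 3 alone 23 by the 73 and 40 (31.5 and 57.5%). Limma gave 16 shared of 37 and 36 calls (43.2 and 44.4%) and the DEXSeq model 28 of 70 and 58 (40.0 and 48.3%). Without replicate 1 of control siRNA with LPS, 7 bins were called with LPS, and 5 of them were among the 35 called without, and without replicate 2 of that group 9 of 23 were. Leaving out replicate 3 of SF3a1 siRNA with LPS gave 11 of 15. The difference between the 2 effects was tested itself, and edgeR called it for no outermost bin and for no bin of the whole table (0% of 153624, lowest adjusted p among the outermost bins 0.999996). An unadjusted p under 0.05 was reached by 115 of 9203 outermost bins (1.25%), beside 1.35% of all bins. Of the 115, 11 were among the 50 bins called in either comparison. Over the whole table limma called 1 bin for this difference, edgeR with the block 2 and edgeR on replicates 2 and 3 alone 2, none of them an outermost bin, and without replicate 1 of control siRNA without LPS 1 outermost bin was called. A call in 1 comparison only is thus not shown to be a difference between them.

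**Figure D5:**
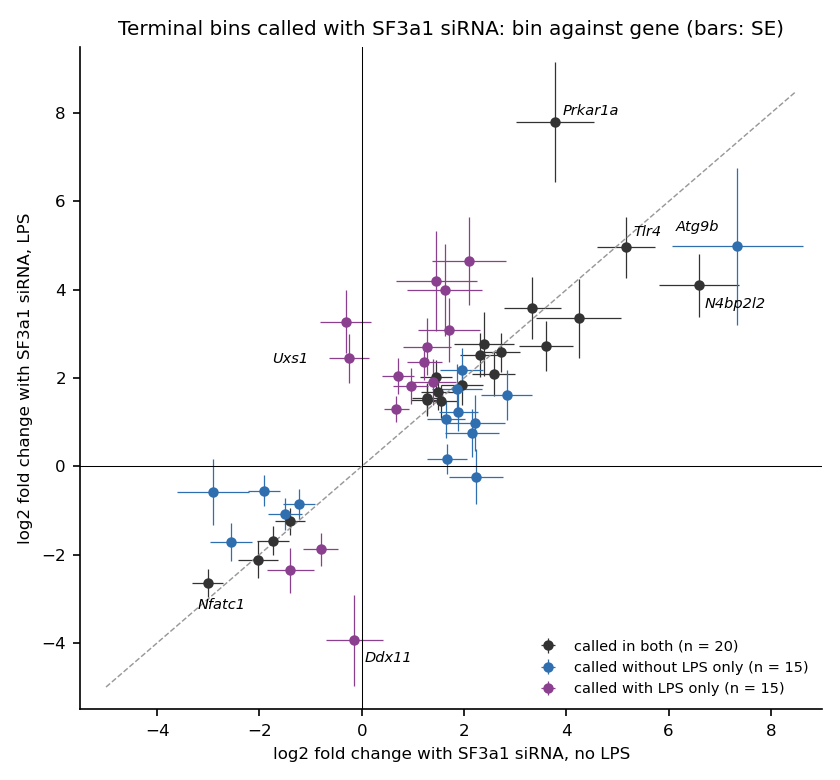
Log2 fold change of the bin against its gene with SF3a1 siRNA without LPS (x axis) and with LPS (y axis) for the 50 terminal bins called in either comparison, with bars of 1 SE and a dashed line of equal effects. The 20 bins called in both (black) have the same sign in both comparisons. The fitted changes of bins at 0 in a control group (Atg9b, and Prkar1a with LPS) depend on the model's prior count and are no estimates of size.

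The 8 calls with LPS in control siRNA cells were 6 5′ bins and 2 3′ bins. All 8 lie in genes whose gene count was also called with LPS, 6 higher and 2 lower, where 32.1% of 14983 genes were called. Bin 1 of Parp11, an ADP-ribosyltransferase, had no count in the 6 libraries without LPS. It took 1.92 and 3.52% with control siRNA and LPS, at least 10.6-fold above the limit that 0 counts in the control group allow, and 1.41, 1.5 and 0.633% with SF3a1 siRNA and LPS. It was kept through the LPS libraries alone, which held all 145 of its counts. The gene count rose from 12.6 ± 1.03 to 84.0 ± 2.46 CPM with LPS in control cells (SD, n = 3).

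Bin 1 of Tm9sf4, a membrane protein of the secretory pathway, took 0.232, 0.269 and 0.285% without LPS and 1.18 and 0.909% with LPS (2.00 ± 0.33, adjusted p = 0.0696). Bin 24 of Tor1aip1, a protein of the inner nuclear membrane, took 0.961, 0.462 and 0.261% against 2.20 and 1.84% (1.85 ± 0.31, adjusted p = 0.0239). Bin 14 of H3f3b, a histone H3.3 gene, which was outside the rule at a usage under 1%, had no count without LPS and took 0.11 and 0.0997% with LPS, at least 12.8-fold above the limit that 0 counts allow (adjusted p = 0.00959). In all 3 the groups were apart. The first call was lost on leaving out any of the 5 libraries (1.79 to 2.17), the second without replicate 1 with LPS (1.72) or replicate 2 or 3 without (1.72 and 1.55), and that of H3f3b without replicate 1 with LPS. From replicates 2 and 3 alone Tm9sf4 and H3f3b were not called (adjusted p = 0.604 and 0.33), limma did not call H3f3b (adjusted p = 0.669), and the DEXSeq model did not call Tor1aip1 (adjusted p = 0.251).

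The 5′ bins whose usage fell with LPS lie in genes that rose. Bin 1 of Adar, which edits adenosines in double-stranded RNA, took 0.897, 0.912 and 0.692% without LPS and 0.124 and 0.112% with LPS (-2.84 ± 0.43, adjusted p = 0.000447), while the gene count rose from 147 ± 16.0 to 731 ± 67.4 CPM. In raw counts the bin had 71, 41 and 27 without LPS and 41 and 14 with LPS. The bin counts summed over the gene were 7911, 4494 and 3899 and then 33149 and 12475. The call was lost without replicate 1 with LPS (-2.90). Bin 1 of Tap1, the peptide transporter of antigen presentation, at chr17:34187553-34187727, took 2.71, 2.47 and 3.96% against 0.817 and 0.682% (-1.97 ± 0.47, adjusted p = 0.0808), while the gene count rose from 28.5 ± 4.66 to 416 ± 24.5 CPM. That call was lost on leaving out any of the 5 libraries (-2.12 to -1.78) and from replicates 2 and 3 alone (adjusted p = 0.246), and in both genes the groups were apart.

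At the 3′ end, LPS raised bin 32 of Dglucy, the enzyme that cyclizes D-glutamate, from 0.317, 0.234 and 0.0855% to 8.89 and 7.25% (5.13 ± 0.40, adjusted p = 1.75e-21), together with bins 27, 30 and 31. With SF3a1 siRNA it took 1.32, 0.287 and 0.434% without LPS, a call (1.66 ± 0.39, adjusted p = 0.0564) that was lost without replicate 1 of SF3a1 siRNA (0.62) and in 3 other ways of leaving out libraries. Bin 1 of Uxs1, which makes UDP-xylose, took 2.16, 3.96 and 2.13% without LPS and 0.586 and 0.337% with LPS (-2.46 ± 0.55, adjusted p = 0.1), just inside the threshold. With SF3a1 siRNA and LPS it took 3.69, 1.56 and 3.03% and was above both control libraries with LPS (2.45 ± 0.55, adjusted p = 0.0293). These 2 calls rest on the same 2 control libraries with LPS, of 9 and 2 counts, and were lost without replicate 1 (-2.96 and 2.95) or 2 (-2.17 and 2.17) of them, and on leaving out some of the further libraries. The bin is 2546 nt long (chr1:43746966-43749511), in 1 of 8 transcripts, with the last 3′ end sequence above near its end. Limma called neither Uxs1 bin (adjusted p = 0.629 and 0.191), and replicates 2 and 3 alone did not either (adjusted p = 0.502 and 0.403).

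In many genes no second bin was called with an outermost bin. Of the called outermost bins, 6 of 8 with LPS, 16 of 35 with SF3a1 siRNA without LPS and 24 of 35 with LPS were the only called bin of their gene, and the next bin inward was called in 2, 10 and 5. With SF3a1 siRNA, 16 of 34 host genes were called at the gene level without LPS, 3 in the direction of the bin and the rest in the opposite one, and 17 of 35 with LPS, 9 in the direction of the bin. The fold change of a bin is taken against its gene's total, and no relation between bin and gene changes was tested. Over all genes, 33.8 and 38.8% were called in these comparisons.

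Among the outermost bins of the gene lists of pathways around SF3a1 and LPS, edgeR called 3 bins. At the shares called among all outermost bins, 0.0869% with LPS and 0.380% in each SF3a1 comparison, few or no calls would fall in lists of this size, and nothing is read from their number. Of 57 tested bins of 64 TLR signalling genes edgeR called Tlr4 bin 10 alone, in both SF3a1 comparisons, while limma also called Casp8 bin 1 with LPS in control cells (-1.66, adjusted p = 0.0265). Of 34 of interferon-stimulated genes edgeR called Adar bin 1, with LPS, while at the gene level 44 of 44 of these genes were called higher with LPS. With SF3a1 siRNA 12 of the 44 were called lower and 2 higher without LPS, and 41 lower and 0 higher with LPS (median log2 fold change -1.90). Of 28 tested bins of p53 target genes edgeR called Cdkn1a bin 1 with LPS, the DEXSeq model called it also without LPS (1.26, adjusted p = 0.014), and 20 of 29 genes were called higher with SF3a1 siRNA without LPS and 1 lower, and 20 higher and 3 lower with LPS. None of the 30 bins of U2 snRNP and branch point factors, the 46 of SR proteins, hnRNPs and their kinases or the 28 of 3′ end processing factors was called by edgeR in any comparison, with 0 to 2 of each list at an unadjusted p under 0.05. Limma called 1 of the 3′ end processing bins, bin 1 of Nudt21, for SF3a1 siRNA with LPS (1.28, adjusted p = 0.0767), and the DEXSeq model called none of these 3 lists. At the gene level, 21 of 43 SR protein, hnRNP and kinase genes were called lower with SF3a1 siRNA without LPS and 5 higher, and with LPS 11 lower and 7 higher. Of 25 3′ end processing genes 5 were lower and 2 higher without LPS, and 6 lower and 3 higher with LPS. Among all genes 33.8% were called without and 38.8% with LPS. The median log2 fold change of the tested outermost bins of TLR genes was 0.02 without LPS and 0.06 with LPS, beside 0.02 and 0.06 for all outermost bins.

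With LPS in control cells, the median log2 fold change was 0.15 over tested 5′ bins, 66.3% of them above 0, and -0.09 over tested 3′ bins, 29.5% above 0. Over all bins it was -0.01, with 49.1% above 0. With SF3a1 siRNA the medians at the 5′ and 3′ ends were 0.10 and 0.00 without LPS and -0.04 and 0.09 with LPS. Replicate 1, which stood apart in usage at the 3′ end, is 1 of 2 libraries of LPS-treated control cells and 1 of 3 without LPS. With the replicate block the LPS medians were 0.10 at the 5′ end, 62.3% above 0, and -0.05 at the 3′ end, 36.1% above 0, and from replicates 2 and 3 alone 0.20, with 66.6% above 0, and -0.07, with 35.5% above 0. With the block, the medians for SF3a1 siRNA were 0.10 and 0.01 without LPS and 0.01 and 0.05 with LPS, so that the 5′ median with LPS changed sign. From replicates 2 and 3 alone they were 0.07 and 0.00 without LPS and -0.12 (40.0% above 0) and 0.07 with LPS, where the 5′ median kept its sign. These medians are descriptions and carry no test.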

How the data were processed

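PolyA RNA was sequenced single-end on an Ion Proton. Per the labels and the study's methods, the authors aligned reads with GSNAP to mm10 and kept unique alignments. They deposited whole-number counts per gene (htseq-count, a 0.5.4p release of HTSeq) and counts per exon bin (the counting script of DEXSeq, Ensembl genes). Use of strand in counting is not given in the sources used here. Totals were 12746019 to 41091887 gene counts and 17269833 to 59095475 bin counts per library. A read can count in more than 1 bin, and bin counts exceeded gene counts in every library with both, so summed bin counts are not numbers of reads. Depth limits precision mostly for bins with few counts.

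The outermost bins and the gene lists were chosen with earlier results of these data known. Ends were assigned by gene strand in GENCODE vM21. Coordinates are given only where bins rebuilt from that annotation matched in number, in 3649 of 7620 genes (47.9%). All bins that passed a filter on low counts were fitted in 1 model over 11 libraries with edgeR 4.0.16 (glmQLFit and diffSpliceDGE) in R 4.3.3, without a replicate block, and p-values were adjusted by Benjamini-Hochberg over all bins tested. Gene counts of 12 libraries were tested with glmQLFTest. SE is the size of the log2 fold change divided by the root of F. The scripts were tested on simulated counts.

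Named bins were, for each comparison and end, the 5 highest and 5 lowest log2 fold changes among calls with a usage of at least 1% in 1 of the groups and the same direction in every same-numbered pair, the ends of 7 genes followed up by the study, and called bins of the lists. Over 15 same-numbered pairs of libraries, deviations from the group means correlated at 0.141 to 0.474, and at -0.449 to 0.275 otherwise. The ranges overlap, and deviations cancel within a group, so that some negative values are forced. Among replicates 2 and 3, same-numbered pairs lay at 0.141 to 0.313 and the others at 0.0631 to 0.275, so pairing by number is not shown for them. Alternatives were the replicate block, leaving out each library, another normalization or filter, limma 3.58.1, the DEXSeq model fitted with DESeq2 1.42.0 and, chosen after seeing the data, replicates 2 and 3 alone.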

Additional observations from a re-analysis of the deposited data

Results flagged for a closer look

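The effect of SF3a1 siRNA on the gene count differed with and without LPS, by an interaction term in edgeR's quasi-likelihood test, for 6 of 58 genes (10.3%) whose outermost bins were called or named by the rule, and for 520 of all 14983 genes (3.47%). The difference between these shares was not tested. The difference (with minus without LPS, log2 scale) was -2.72 for Tap1, -2.11 for Parp11, -1.11 for Cdkn1a, -0.87 for Tor1aip1, -0.72 for Tm9sf4 and 0.93 for Dglucy. The corresponding difference was called for none of their outermost bins.

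Reads that fell outside all bins, which enter none of the comparisons, made up 20.9, 17.1 and 16.3% in unstimulated SF3a1 siRNA libraries, a mean of 18.1%, above each of the control libraries without LPS, at 13.4, 15.5 and 13.6%. With LPS the groups overlapped, at 15.0, 14.2 and 16.7% with SF3a1 siRNA and 14.8 and 15.2% with control siRNA. Their part in the results was not tested. Within groups of 2 or 3 libraries no test for single outlying libraries was applied, and each library was left out in turn instead.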

How the results depend on the processing

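With LPS in control cells, the 8 calls became 13 with the DEXSeq model, 21 with the replicate block, 5 in a table without joined genes, and 2 to 10 on leaving out 1 library. For SF3a1 siRNA without LPS, the 35 became 70, 87 and, from replicates 2 and 3 alone, 73, and 20 to 36 on leaving out 1 library. With LPS, the 35 became 58 and 85, and 7 to 38. The difference between these effects gave 0 to 1 call. Over all bins, the 123, 961 and 756 calls of these 3 comparisons became 219, 1732 and 1337 with the DEXSeq model. With the block they became 285, 2115 and 1793. The cause of these shifts was not tested. Correlations by replicate number are given with the methods.

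Median usage at the 5′ end, in the order control, control with LPS, SF3a1 siRNA, SF3a1 siRNA with LPS, was 3.23, 3.56, 3.5 and 3.55% for bins with at least 200 counts and 1.42, 1.58, 1.5 and 1.52% in genes of 10 or more bins, and 2.29% in control cells with LPS from pooled counts. At the 3′ end it was 21.8, 20.5, 21.7 and 21.8%, and 15, 14, 14.9 and 15%. The 6 gene-level differences became 12 with DESeq2, 17 with the block, and 3 to 8 on leaving out 1 library.

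Repeats were run for the bins that were called in any comparison or named by the rule. Of 1091 repeats over 88 results of these bins, 854 kept their side of the threshold, 237 lost the call and 0 changed direction. Of the 88 results, 57 lost the call at least once. Leaving out a control library with LPS, or using replicates 2 and 3 alone, leaves 1 library in that group, which is then assumed to vary like the other groups. The LPS comparison rests on 3 against 2 libraries.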
